A study of Mus musculus with 24 samples.

Results

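The BCL2 family survival genes are followed here in T cells from mice with bone marrow failure. The 10 genes were taken by symbol from the table of read counts, which lists 24421 genes, and all 10 were found. They comprise 3 genes of antiapoptotic proteins (Bcl2, Bcl2l1 and Mcl1), 2 of the pore-forming effectors (Bax and Bak1) and 5 of BH3-only proteins (Bcl2l11, Bid, Bbc3, Pmaip1 and Bad).

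RNA was sequenced from CD8 and CD4 T cells that had been sorted by flow cytometry out of the marrow of CByB6F1 mice, all of which had bone marrow failure, a model of immune aplastic anaemia. The mice had received ruxolitinib at low dose together with cyclosporine (RUX+CSA), cyclosporine alone (CSA), ruxolitinib at low dose alone (RUX) or no drug (untreated). Cyclosporine inhibits calcineurin, the phosphatase that activates NFAT, and ruxolitinib inhibits the kinases JAK1 and JAK2, which carry cytokine signals. There were 3 pools in each of the 8 groups of cell type and treatment, 24 libraries in all, and no group without marrow failure was used here. Each pool held cells of 2 to 3 female mice aged 2 to 5 months, so a library averages over animals. How marrow failure was induced, the doses, and whether CD8 and CD4 pools came from the same mice are not given in the sources used here. CD8 and CD4 pools carry different numbers (1 to 12 and 13 to 24) and were compared as unpaired, so any sharing of mice between them is not modelled in the tests across cell types.

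Proteins of the BCL2 family decide whether the outer mitochondrial membrane is permeabilised, the step that commits a cell to intrinsic apoptosis. BCL2, BCL-XL (the product of Bcl2l1) and MCL1 bind and restrain BAX, BAK and the BH3-only proteins, while BH3-only proteins relay stress, cytokine loss and antigen receptor signals by occupying the antiapoptotic proteins or by activating BAX and BAK. In T cells BIM (Bcl2l11) is best known for removing autoreactive thymocytes and for ending responses of activated cells, and survival of resting T cells depends on BCL2 and MCL1.

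Depth ran between 16.9 and 34.6 M counted read pairs per library, and the members had between 151 and 16180 read pairs in a library, so none was near the detection floor. The defining markers followed the labelled sort: Cd8a stood at 730 to 1149 CPM (counts per mega read pairs) in CD8 libraries against 1.16 to 7.79 CPM in CD4 libraries, and Cd4 at 0.403 to 1.16 CPM in CD8 libraries against 1175 to 1722 CPM in CD4 libraries. Transcripts of other marrow cells were present and varied widely, with S100a8, a neutrophil gene, at 0.172 to 1008 CPM in CD8 and 0.507 to 3274 CPM in CD4 libraries. The CD8 library labelled CSA pool 6 and that labelled RUX pool 7 stood apart from their own groups. Over all genes, log2 CPM of CSA pools 4 and 5 correlated at Pearson's r = 0.9981, against 0.9939 and 0.9919 with pool 6, and RUX pools 8 and 9 at 0.9981, against 0.9910 and 0.9899 with pool 7. Test results that rest on CSA pool 6 or RUX pool 7 are given with and without these libraries, while group means, SDs and ratios include them. Among untreated CD4 pools, r was 0.9929 for pools 13 and 15, against 0.9890 and 0.9845 with pool 14, so that group was not uniform either. Pool 14 was left out only as a single library. All levels are CPM after TMM scaling, and differences are log2 fold changes from edgeR's quasi-likelihood test with Benjamini-Hochberg adjustment over all genes tested. A gene is said to be higher, lower or changed only where its adjusted p was under 0.05. In these bulk samples a different mix of cells and a different amount of RNA per cell cannot be told apart, and p-values measure only the spread between pools.

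The promoter windows of Bcl2l11 and Bbc3 are shown because these were the members with the largest CD8 against CD4 differences in untreated mice, and because theirs were the only member windows with a match to the core recognised by forkhead factors, a family that includes FOXO proteins known to act on both genes. Each is the 250 bases before a transcript start, from RefSeq on GRCm38.p6, the assembly that mm10 represents, written 5′ to 3′ on the + strand with the core in capitals. The Bcl2l11 window, chr2:128125788-128126037, ends at the base before the first exon used for counting. The Bbc3 window, chr7:16310011-16310260, belongs to the second of 3 annotated starts and ends 678 bases from the nearest exon start used for counting.
Bcl2l11: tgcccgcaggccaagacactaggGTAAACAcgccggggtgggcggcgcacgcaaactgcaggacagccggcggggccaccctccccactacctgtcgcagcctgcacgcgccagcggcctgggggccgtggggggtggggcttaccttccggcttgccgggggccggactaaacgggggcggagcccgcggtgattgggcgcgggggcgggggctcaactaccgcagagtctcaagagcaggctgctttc
Bbc3: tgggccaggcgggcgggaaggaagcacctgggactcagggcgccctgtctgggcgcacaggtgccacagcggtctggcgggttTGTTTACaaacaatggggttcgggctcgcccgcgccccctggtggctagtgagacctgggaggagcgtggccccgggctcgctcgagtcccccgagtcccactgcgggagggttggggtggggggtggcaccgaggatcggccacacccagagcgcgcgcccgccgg

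The core GTAAACA was searched on both strands and lay 227 to 221 bases before the start in Bcl2l11 and, as its reverse complement, 167 to 161 bases before the start in Bbc3. It occurred in 2 of the 15 windows available for 9 members and in 3.17% of all 32851 windows of the same length. The NFAT core GGAAA was in 11 of the 15 windows, covering 8 of the 9 members, and in 55.6% of all windows, with no match in either Bcl2l11 window. The STAT core TTCNNNGAA was in none of the 15 and in 7.02% of all. All were searched on both strands. The forkhead core was the only one of the 3 in the windows printed, which were chosen for holding it. The Bbc3 window just before the first exon used for counting had the NFAT core and no forkhead core. A match describes letters only.

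Per length of exon, Bax, which forms the mitochondrial pore once activated, had the highest level of the 10 genes in both cell types, with 184 ± 14.3 CPM per kb in CD8 and 166 ± 17.0 CPM per kb in CD4 libraries (mean ± SD, n = 12 each). Mcl1, a short-lived antiapoptotic protein, followed with 110 ± 6.87 CPM per kb in CD8 and 129 ± 14.9 CPM per kb in CD4 libraries. Bak1, the other pore former, was lowest in both, at 7.15 CPM per kb in CD8 and 6.02 CPM per kb in CD4 libraries. The order in between was not shared. Bcl2l11 stood at 22.6 ± 4.44 CPM per kb in CD8 and 9.35 ± 4.18 CPM per kb in CD4 libraries, while Bcl2l1 stood at 20.9 ± 5.15 CPM per kb in CD8 and 37.9 CPM per kb in CD4 libraries. These levels lay within 1 SD of each other in CD8 cells, whereas Bcl2l1 stood well above Bcl2l11 in CD4 cells.

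**Figure D1:**
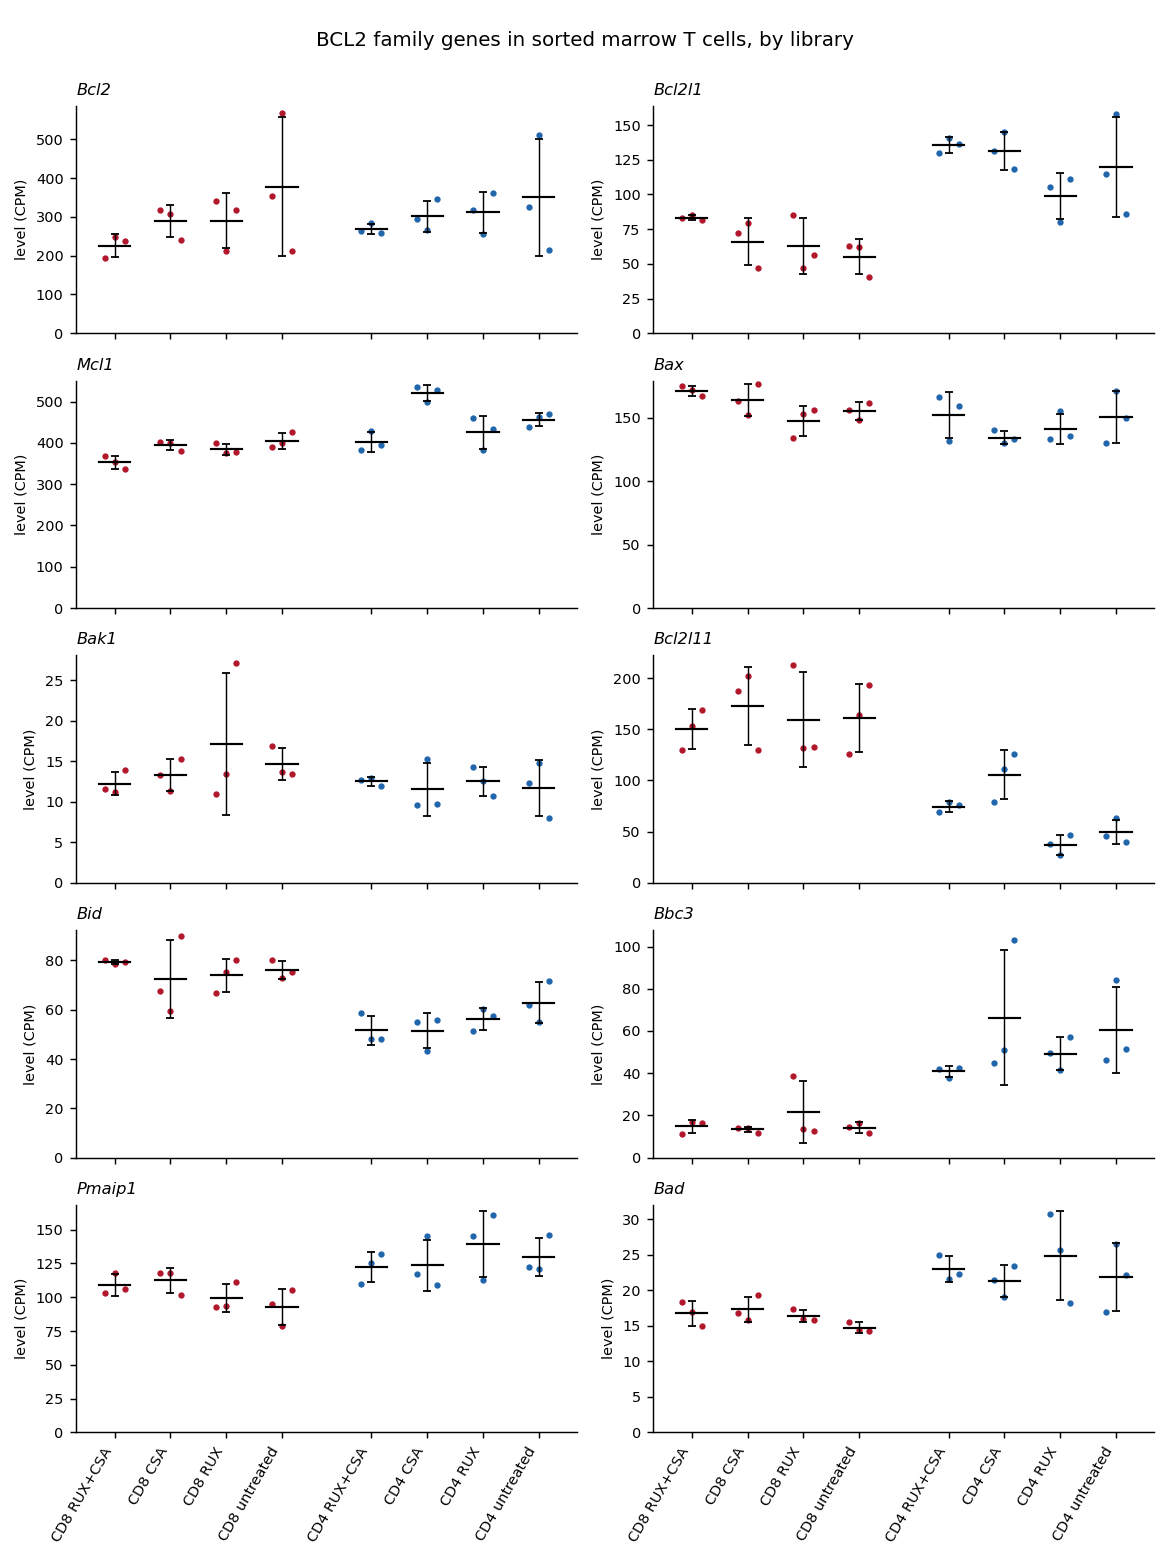
Levels of the 10 genes (CPM after TMM scaling, one panel a gene, linear axes) in every pool, with CD8 groups in red on the left and CD4 groups in blue on the right, and RUX+CSA, CSA, RUX and untreated pools from left to right. Points are pools, horizontal lines are means and bars are SDs over 3 pools; Bcl2l11 is high in all CD8 groups (126 to 213 CPM), and among CD4 groups is highest in those given cyclosporine.

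The comparison of CD8 with CD4 cells showed opposite changes of the BH3-only genes and a lower level of Bcl2l1 RNA in CD8 cells. In untreated mice Bcl2l11 was higher in CD8 cells and Bbc3, Bcl2l1, Pmaip1 and Bad were lower, 5 of the 10 members, where 17.2% of the 13476 genes tested were called in this comparison, 7.20% as higher and 10.0% as lower. Averaged over the 4 treatments, Bcl2l11, Bid and Bax were higher and Bcl2l1, Mcl1, Bbc3, Pmaip1 and Bad were lower. These are 8 of 10 members against 53.8% of all genes, 27.4% higher and 26.4% lower, so calls were common in that contrast for any gene.

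Among the antiapoptotic genes, Bcl2l1 (chr2:152758732-152831728, - strand), which encodes BCL-XL, separated the cell types most. It had 82.7, 85.3 and 81.6 CPM in CD8 RUX+CSA pools, 72.1, 79.3 and 46.8 CPM in CSA, 85.3, 47.0 and 56.2 CPM in RUX and 63.1, 62.2 and 40.4 CPM in untreated pools. In CD4 cells it had 130, 141 and 136 CPM in RUX+CSA pools, 131, 145 and 118 CPM in CSA, 105, 80.1 and 111 CPM in RUX and 115, 158 and 86.2 CPM in untreated pools. Only CD4 RUX pool 20 fell inside the CD8 range. The difference was -1.12 (SE 0.24, adjusted p = 0.00256, 0.462-fold) in untreated mice and -0.86 (SE 0.12, adjusted p = 4.72e-06, 0.549-fold) over all treatments.

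Mcl1 (chr3:95658721-95663178, + strand) ran between 337 and 426 CPM in CD8 and between 382 and 536 CPM in CD4 libraries. It was 0.854-fold as high in CD8 cells over the 4 treatments (log2 -0.23, SE 0.04, adjusted p = 2.76e-05), and in untreated mice alone the difference did not pass (-0.17, adjusted p = 0.108). Bcl2 (chr1:106538178-106714290, - strand), the founding antiapoptotic gene, showed no difference past the test, with a 95% interval of -0.39 to 0.24 around -0.08 (adjusted p = 0.695). Its pools within a group differed widely: untreated pools had 354, 568 and 213 CPM in CD8 and 325, 512 and 215 CPM in CD4 cells. The untreated pools lowest in summed neutrophil markers of their cell type, CD8 pool 2 at 12.9 CPM and CD4 pool 14 at 96.9 CPM, had the highest Bcl2, and those highest in such markers, CD8 pool 3 at 1521 CPM and CD4 pool 15 at 8947 CPM, had the lowest. In CD8 RUX+CSA and RUX pools the order of Bcl2 was also the reverse of that of these markers. CD8 CSA pool 6, highest in the markers of its group, had the lowest Bcl2. Treated CD4 groups went the other way. RUX+CSA pool 23 was highest and pool 24 lowest of its group in both, and CSA pool 17 and RUX pool 20 were lowest in both. The part of these markers in the Bcl2 level was tested only as a covariate. Untreated CD8 pools 1, 2 and 3 ranked like CD4 pools 13, 14 and 15 in both measures, and whether these share mice is not given in the sources used here. With a covariate of neutrophil, erythroid and B cell markers in the fit, Bcl2 was -0.34 in CD8 against CD4 cells (adjusted p = 0.00782).

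Of the effectors, Bax (chr7:45461695-45466898, - strand) had 175, 172 and 167 CPM in CD8 RUX+CSA, 163, 152 and 177 CPM in CSA, 134, 153 and 156 CPM in RUX and 156, 148 and 162 CPM in untreated pools. The CD4 pools had 166, 132 and 159 CPM with RUX+CSA, 140, 130 and 133 CPM with CSA, 133, 155 and 136 CPM with RUX and 130, 171 and 150 CPM untreated. The cell types overlapped in RUX and in untreated pools. With RUX+CSA and with CSA every CD8 pool lay above every CD4 pool, narrowly so in RUX+CSA (167 against 166 CPM). CD8 against CD4 was not tested within RUX+CSA or CSA. The mean difference over treatments was 0.14 (SE 0.05, adjusted p = 0.0208), which was lost on leaving out any of 8 of the 24 libraries, with adjusted p up to 0.0656. Bak1 (chr17:27019812-27028626, - strand) stood between 7.95 and 27.1 CPM in all libraries, with a difference of 0.24 that did not pass (95% interval -0.05 to 0.52, adjusted p = 0.149).

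Among the BH3-only genes, Bcl2l11 (chr2:128126038-128162547, + strand), which encodes BIM, had the largest excess in CD8 cells. CD8 pools had 130, 153 and 169 CPM with RUX+CSA, 187, 202 and 130 CPM with CSA, 213, 132 and 133 CPM with RUX, and 126, 164 and 193 CPM untreated. CD4 pools had 68.8, 78.6 and 76.1 CPM with RUX+CSA, 79.1, 111 and 126 CPM with CSA, 38.1, 27.2 and 46.6 CPM with RUX, and 46.1, 63.0 and 40.0 CPM untreated. Every one of the 12 CD8 libraries was above every CD4 library, with CD4 CSA pool 18 just under the lowest of them. The difference was 1.69 (SE 0.25, adjusted p = 8.59e-05, 3.24-fold) in untreated mice and 1.38 (SE 0.12, adjusted p = 1.87e-08, 2.60-fold) over treatments. By group mean, the 4 CD8 groups came first, between 173 ± 38.0 CPM with CSA and 151 ± 19.8 CPM with RUX+CSA, and did not differ from their neighbours beyond their SDs. These CD8 means include CSA pool 6 (130 CPM) and RUX pool 7 (213 CPM). The other CD8 pools of these groups had 187 and 202 CPM with CSA and 132 and 133 CPM with RUX. The CD4 groups followed in the order CSA (105 ± 23.9), RUX+CSA (74.5 ± 5.10), untreated (49.7 ± 11.9) and RUX (37.3 ± 9.73 CPM), each step exceeding the SDs of both neighbours.

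Bbc3 (chr7:16309583-16318334, + strand), which encodes PUMA, a BH3-only protein known as a p53 and FOXO target, went the other way. CD8 pools had 11.4, 16.9 and 16.5 CPM with RUX+CSA, 14.1, 14.2 and 11.8 CPM with CSA, 38.5, 13.6 and 12.8 CPM with RUX, and 14.5, 16.5 and 11.5 CPM untreated. CD4 pools had 42.2, 37.9 and 42.5 CPM with RUX+CSA, 45.0, 51.1 and 103 CPM with CSA, 49.5, 41.3 and 57.0 CPM with RUX, and 46.1, 84.0 and 51.6 CPM untreated. A single CD8 library, RUX pool 7, reached the CD4 range, by a margin over the lowest CD4 pool only. Bbc3 was lower in CD8 cells, with a difference of -2.10 (SE 0.38, adjusted p = 0.000682, 0.234-fold) in untreated mice and -1.76 (SE 0.19, adjusted p = 2.69e-07, 0.295-fold) over treatments.

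Bid (chr6:120893119-120916820, - strand), the BH3-only protein cleaved by caspase 8 downstream of death receptors, had 59.4 to 90.0 CPM in CD8 and 43.3 to 71.6 CPM in CD4 libraries. It was higher in CD8 cells over the 4 treatments (0.45, SE 0.07, adjusted p = 1.24e-05, 1.36-fold), while the untreated pools alone did not pass (0.28, adjusted p = 0.164). Pmaip1 (chr18:66458604-66465558, + strand), which encodes the MCL1-binding protein NOXA, had 94.7, 79.0 and 105 CPM in untreated CD8 and 122, 121 and 146 CPM in untreated CD4 pools, with no overlap. Its difference was -0.48 (adjusted p = 0.0182) in untreated mice and -0.32 (adjusted p = 0.000458) over treatments. Bad (chr19:6941861-6951905, + strand), whose product binds BCL2 and BCL-XL when dephosphorylated, had 15.6, 14.4 and 14.2 CPM in untreated CD8 and 16.9, 26.5 and 22.2 CPM in untreated CD4 pools. It was lower in CD8 cells, at -0.57 (adjusted p = 0.0246) in untreated mice and -0.48 (adjusted p = 7.08e-05) over treatments. Of the exon bases of Bad, 517 overlap those of Gpr137, and the counting used no strand, so reads there cannot be assigned with certainty.

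The untreated calls for Pmaip1 and Bad rested on single libraries. Pmaip1 was not called without CD8 untreated pool 2 (adjusted p = 0.0861) or CD4 untreated pool 15 (adjusted p = 0.100). Bad was not called without CD8 untreated pool 2 (0.0618) or 3 (0.0750) or CD4 untreated pool 14 (0.141) or 15 (0.0641). The untreated calls of Bcl2l11, Bbc3 and Bcl2l1 held on leaving out each of the 6 libraries, and the 7 calls over treatments other than Bax held on leaving out each of the 24. Markers of other cells moved with the cell type: over treatments 12 of 16 neutrophil, 3 of 8 erythroid and 9 of 10 macrophage markers were lower in CD8 libraries. Beside these, 26.4% of all genes were called lower. Without CSA pool 6 and RUX pool 7 the same 8 genes were called over treatments, with Bcl2l11 at 1.36, Bid at 0.42, Bax at 0.14, Bcl2l1 at -0.89, Mcl1 at -0.23, Bbc3 at -1.92, Pmaip1 at -0.29 and Bad at -0.52. The calls over treatments other than Bax held with a covariate built from neutrophil, erythroid and B cell markers. Macrophage markers were not part of that covariate and were not adjusted for.

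**Figure D2:**
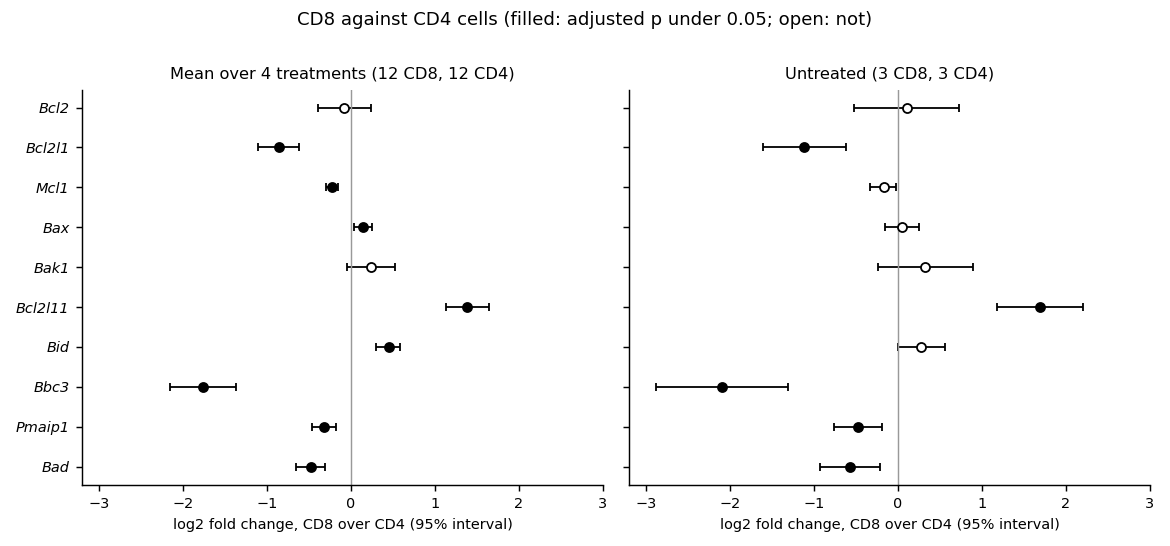
Log2 fold change of CD8 over CD4 cells for each of the 10 genes, as the mean over the 4 treatments (left, 12 pools against 12) and in untreated mice (right, 3 pools against 3), with 95% intervals; filled points have an adjusted p under 0.05. Bcl2l11 lies furthest to the right (1.38 and 1.69) and Bbc3 furthest to the left (-1.76 and -2.10).

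Of the genes around the family, 4 lists were counted in the mean CD8 against CD4 comparison, in which 27.4% of all genes were called higher and 26.4% lower. Of 12 other BCL2 family genes tested, CD8 cells had 2 higher and 7 lower, among them Bnip3l, a mitophagy receptor (-0.40, adjusted p = 1.06e-06). Its level averaged 156 ± 15.8 CPM in untreated CD8 and 187 ± 27.3 CPM in untreated CD4 pools (SD, n = 3 each). Bcl2a1b, an antiapoptotic gene of activated cells, was at -0.53 and Bcl2a1a at -1.67. These are near-identical copies among which reads can be split, so their separate values are uncertain. One of the 2 higher genes, Bcl2l12, named here after its values were seen, kept its call in 6 of 24 leave-outs and 1 of 7 other settings. Of the 10 apoptosome and caspase genes, 3 were higher and 4 lower, with Casp6, an effector caspase, among the lower ones (-0.31, adjusted p = 8.20e-05).

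Of the 5 inhibitor of apoptosis genes, CD8 cells had 2 higher and 2 lower. Birc3, which encodes the ubiquitin ligase cIAP2, was lower in every CD8 library than in any CD4 library (-0.77, adjusted p = 5.35e-11), with 66.8 ± 3.63 CPM in untreated CD8 and 99.0 ± 9.93 CPM in untreated CD4 pools. Its relative Birc2 was also lower (-0.47, adjusted p = 2.38e-07), while Birc6 (0.49) and the mitotic gene Birc5 (0.80) were higher. Of 11 regulators of BCL2 family members, 4 were higher and none lower. Foxo1, a forkhead factor, was among them (0.36, adjusted p = 0.00164), with 109 ± 5.57 CPM in untreated CD8 and 93.6 ± 7.29 CPM in untreated CD4 pools. The other 3 were Huwe1 (0.27), Usp9x (0.23) and Trp53 (0.14, adjusted p = 0.0468), and the Trp53 call held in 5 of 24 leave-outs and 2 of 7 other settings, with DESeq2 giving an adjusted p of 0.0813. Huwe1 and Usp9x act on MCL1 stability, as a ubiquitin ligase and a deubiquitinase, and Trp53 encodes p53. Foxo3 did not pass (-0.17, adjusted p = 0.509).

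In CD4 cells, cyclosporine went with a higher level of Bcl2l11 and with no other call among the 10 genes. Against untreated mice, Bcl2l11 was 2.12-fold as high with CSA (1.08, SE 0.22, 95% interval 0.61 to 1.55, adjusted p = 0.0284), the only member called where 1.48% of 13175 genes were called, 1.00% as higher. Its 79.1, 111 and 126 CPM in CSA pools all lay above the 46.1, 63.0 and 40.0 CPM of untreated pools. Leaving out single libraries left the call in 2 of 6 cases. It ended without untreated pool 13 (adjusted p = 0.0927) or 15 (0.0666) and without CSA pool 17 (0.0784) or 18 (0.124), with log2 values between 0.93 and 1.03 in these 4 cases.

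The same gene was tested over the 6 CD4 pools given cyclosporine, alone or with ruxolitinib, against the 6 not given it, a contrast that includes the pools above. The pools with cyclosporine had 68.8 to 126 CPM (median 78.9) and those without 27.2 to 63.0 CPM (median 43.1). No pool of one set reached the other. The difference was 1.04 (SE 0.15, 95% interval 0.71 to 1.37, 2.06-fold, adjusted p = 0.00206), against 7.16% of genes called in this contrast and 3.76% called higher, and it held on leaving out each of the 12 libraries (0.95 to 1.14, adjusted p 0.000543 to 0.00879) and in 6 of 6 other settings.

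Where cyclosporine was given with ruxolitinib, Bcl2l11 stood at intermediate levels. RUX+CSA pools had 68.8, 78.6 and 76.1 CPM, above all untreated pools (0.58, SE 0.22, adjusted p = 0.184) and above all RUX pools (38.1, 27.2 and 46.6 CPM; 1.00, SE 0.22, 95% interval 0.53 to 1.47, adjusted p = 0.0585), and below all CSA pools (-0.50, SE 0.21, adjusted p = 0.453). None of these passed the threshold. No member was called in any of them, where 1.77% (against untreated), 0.782% (against RUX) and 0.281% (against CSA) of genes were, and 1, 2 and 3 members had an unadjusted p under 0.05, beside 16.9%, 14.3% and 9.98% of genes. RUX alone gave -0.42 against untreated (adjusted p = 1.00), in a comparison with no call among the members or any gene (0.00%; 548 genes and 0 members at an unadjusted p under 0.05, and 12 genes called by DESeq2). Over the 6 pools with ruxolitinib against the 6 without, Bcl2l11 was at -0.46 (SE 0.15, adjusted p = 0.330) and no member was called, against 0.250% of genes, with 3 members and 9.82% of genes at an unadjusted p under 0.05.

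Transcripts of other marrow cells also differed between CD4 libraries with and without cyclosporine. Summed erythroid markers stood at 88.1 to 269 CPM with and 2.18 to 51.7 CPM without cyclosporine, and summed neutrophil markers at 3601 to 17549 CPM with and 96.9 to 8947 CPM without. Summed B cell markers stood at 120, 71.8 and 33.6 CPM in RUX+CSA pools, against 17.5, 15.9 and 24.5 CPM in CSA pools and 11.7 to 18.6 CPM without cyclosporine, so RUX+CSA pools were high and CSA pools overlapped those without. Summed macrophage markers stood at 460 to 2263 CPM with and 321 to 1336 CPM without. By gene, 3 of 8 erythroid, 1 of 16 neutrophil and 2 of 8 B cell markers were higher and 2 of 10 macrophage markers lower. Beside these, 3.76% of all genes were called higher and 7.16% in either direction. The haemoglobin genes Hba-a1, Hbb-bs and Hbb-bt were at 0 in all 24 libraries. CSA pool 16, with the highest neutrophil sum at 17549 CPM, had 79.1 CPM of Bcl2l11, the lowest of its group, and untreated pool 15, with 8947 CPM, had 40.0 CPM, the lowest of its group. The other groups went the other way. RUX+CSA pool 23 had the highest neutrophil sum (10719 CPM) and the highest Bcl2l11 (78.6 CPM) of its group. RUX pool 20 had the lowest of both in its group (4136 and 27.2 CPM). The part of these markers in Bcl2l11 was not tested beyond a covariate. With a covariate of neutrophil, erythroid and B cell markers in the fit, Bcl2l11 with cyclosporine was still called. Macrophage markers were not part of that covariate.

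**Figure D3:**
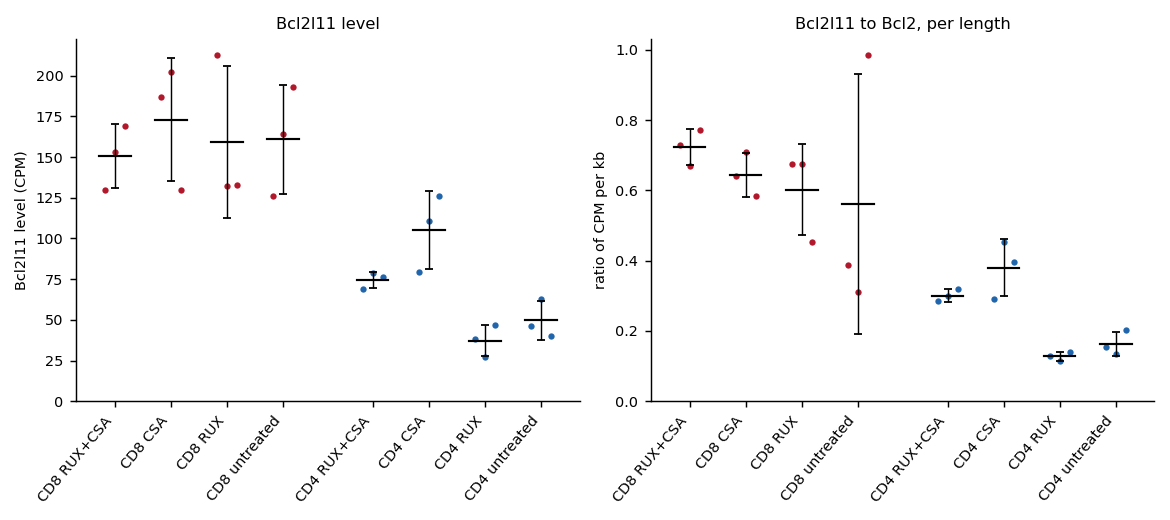
Left, the level of Bcl2l11 (CPM after TMM scaling); right, the ratio of Bcl2l11 to Bcl2, each as CPM per kb of exon; linear axes from 0, CD8 groups in red left of CD4 groups in blue, points for pools, lines for means and bars for SDs over 3 pools. The CD4 pools given cyclosporine (68.8 to 126 CPM) stand above the CD4 pools not given it (27.2 to 63.0 CPM), and the CD8 groups overlap.

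Set against Bcl2 as levels per length, the ratio of Bcl2l11 to Bcl2 in CD4 cells was 0.284, 0.299 and 0.319 with RUX+CSA, 0.292, 0.452 and 0.396 with CSA, 0.130, 0.115 and 0.140 with RUX and 0.154, 0.134 and 0.202 in untreated pools. Every pool with cyclosporine lay above every pool without. In CD8 cells the mean ratio was 0.724 ± 0.0520 with RUX+CSA, 0.644 ± 0.0622 with CSA, 0.601 ± 0.129 with RUX and 0.562 ± 0.369 untreated (SD, n = 3 each). The untreated CD8 pools spanned 0.312 to 0.986, wider than all treated CD8 pools together. The ratio of Bcl2l1 to Bcl2 was 0.901 ± 0.118 with RUX+CSA, 0.548 ± 0.0762 with CSA, 0.523 ± 0.0897 with RUX and 0.386 ± 0.105 untreated in CD8 cells, and 1.22 ± 0.0436, 1.07 ± 0.248, 0.767 ± 0.0269 and 0.857 ± 0.113 in the same order of groups in CD4 cells. The ratios are descriptions and were not tested.

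Of the other antiapoptotic genes in CD4 cells, Mcl1 had 382, 429 and 396 CPM with RUX+CSA, 536, 499 and 529 CPM with CSA, 460, 383 and 433 CPM with RUX and 439, 462 and 469 CPM untreated. The CSA pools stood above all other CD4 pools. Mcl1 was at -0.37 in RUX+CSA against CSA (SE 0.09, adjusted p = 0.114) and at 0.19 in CSA against untreated (adjusted p = 0.301), neither past the threshold, and DESeq2 gave an adjusted p of 0.00609 for the first of these. Bcl2l1 was at 0.46 in RUX+CSA against RUX (SE 0.18, adjusted p = 0.262), with no overlap of pools, and at 0.30 with against without cyclosporine (SE 0.13, adjusted p = 0.186). With the marker covariate the second of these was 0.67 (adjusted p = 0.0148), and without untreated pool 14 it was 0.42 (adjusted p = 0.0214). Bbc3, at -0.70 in RUX+CSA against CSA (SE 0.31, adjusted p = 0.492), and Bid, at -0.21 with against without cyclosporine (adjusted p = 0.219), did not pass.

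In CD8 cells no member was called in any of the 7 drug comparisons by edgeR. The share of genes called was 15.7% in RUX+CSA against untreated, 0.00% in CSA and in RUX against untreated, 0.0788% in RUX+CSA against CSA, 0.00% in RUX+CSA against RUX, 2.36% with against without cyclosporine and 0.560% with against without ruxolitinib. The members with an unadjusted p under 0.05 numbered 3, 1, 0, 1, 1, 2 and 1 in the same order, beside 33.7%, 9.72%, 5.87%, 12.6%, 17.3%, 24.0% and 15.7% of all genes, so 3 of 10 members in RUX+CSA against untreated was near the share of any gene. In the comparisons with no call, 1233 genes (CSA against untreated), 744 (RUX against untreated) and 2198 (RUX+CSA against RUX) had such a p. Among the alternatives, calls in those comparisons reached 616 in CSA against untreated and 1481 in RUX+CSA against RUX, both with CSA pool 6 and RUX pool 7 left out, and 78 in RUX against untreated with DESeq2.

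The antiapoptotic genes came nearest to the threshold in RUX+CSA against untreated CD8 cells. Bcl2 had 193, 248 and 237 CPM in RUX+CSA against 354, 568 and 213 CPM in untreated pools (-0.75, SE 0.31, adjusted p = 0.120, 0.593-fold), and the pools overlapped. The value was -0.33 without untreated pool 2, and was called at -1.04 (adjusted p = 0.0284) without untreated pool 3. With the marker covariate it was 0.77 (adjusted p = 0.646), the opposite sign. Bcl2l1 had 82.7, 85.3 and 81.6 CPM in RUX+CSA against 63.1, 62.2 and 40.4 CPM in untreated pools, with no overlap (0.58, SE 0.26, adjusted p = 0.136). Mcl1 had 369, 354 and 337 CPM in RUX+CSA against 389, 399 and 426 CPM in untreated pools, also with no overlap (-0.21, SE 0.07, adjusted p = 0.0730).

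Without CSA pool 6 and RUX pool 7, Bcl2l1 (0.58, adjusted p = 0.0135) and Mcl1 (-0.20, adjusted p = 0.0370) passed in that comparison. Neither library is in the groups compared there, and the log2 values with them were 0.58 and -0.21. They enter the fit through the estimate of spread that all groups share, the scaling factors and the set of genes tested and adjusted over. Which of these moved the calls was not tested. Calls over all genes went from 1988 to 3893 without them, and genes tested from 12684 to 12799. Without these 2 libraries Bcl2l1 also passed in RUX+CSA against RUX (0.69, adjusted p = 0.0236, against 0.40 and 0.437 with them). The same held with against without cyclosporine (0.57, adjusted p = 0.00620, against 0.33 and 0.286 with them). The neutrophil, erythroid and B cell markers were higher in CD8 RUX+CSA against untreated pools for 5 of 16, 6 of 8 and 5 of 7 genes tested. In that comparison 15.7% of all genes were called in either direction, 7.73% as lower. The part of these markers in the values above was not tested beyond the covariate.

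The effectors and BH3-only genes of CD8 cells were short of the threshold in every drug comparison. Bax was at 0.13 in RUX+CSA against untreated pools (SE 0.08, adjusted p = 0.247), with no overlap of pools, and at 0.21 against RUX (SE 0.08, adjusted p = 0.212), or 0.14 and 0.16 without CSA pool 6 and RUX pool 7. Pmaip1 was at 0.20 with against without cyclosporine (adjusted p = 0.161), or 0.22 (0.0867) without these 2 pools. Bbc3 was at 0.61 in RUX against untreated (SE 0.37, adjusted p = 0.908), a value set by RUX pool 7, which had 38.5 CPM, and -0.11 without it. Bcl2l11 was at 0.01 with against without cyclosporine, with a 95% interval of -0.35 to 0.37 (adjusted p = 0.982), and at 0.23 (adjusted p = 0.158) without these 2 pools. In RUX+CSA against untreated the members had a median of 0.06, beside -0.02 over all genes tested.

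**Figure D4:**
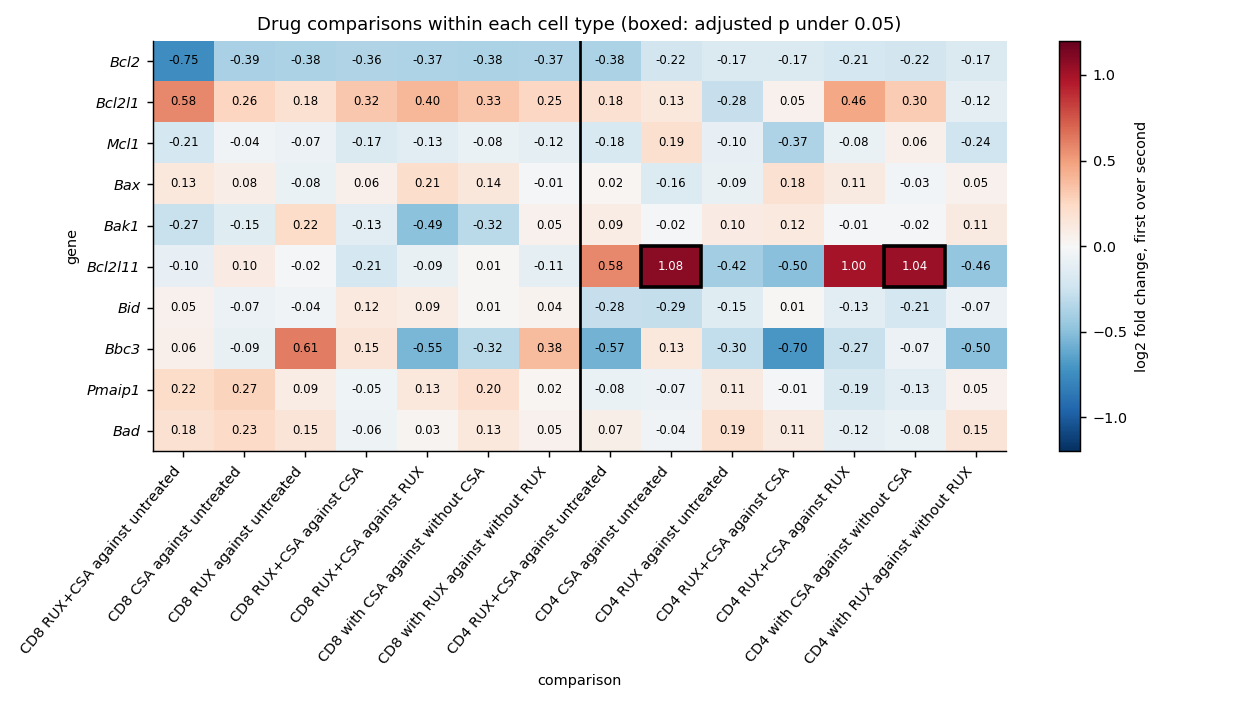
Log2 fold changes of the 10 genes (rows) in the drug comparisons within CD8 and CD4 cells (columns), written in each cell and coloured from lower to higher; boxed cells have an adjusted p under 0.05. The boxed cells are Bcl2l11 in CD4 CSA against untreated (1.08) and in CD4 with against without cyclosporine (1.04).

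The cyclosporine effect on Bcl2l11 was then compared between the cell types. The log2 change of CSA against untreated in CD8 cells minus that in CD4 cells was -0.98 (SE 0.34, 95% interval -1.69 to -0.27), with an unadjusted p of 0.00932 and an adjusted p of 0.653, so a difference between cell types was not called. The corresponding differences were -0.68 for RUX+CSA (SE 0.34, adjusted p = 0.375) and 0.40 for RUX (SE 0.34, adjusted p = 1.00). Without CSA pool 6 and RUX pool 7 the 3 Bcl2l11 differences were -0.81 for CSA (adjusted p = 0.618), -0.67 for RUX+CSA (0.259) and 0.14 for RUX (1.00). Over these 3 comparisons edgeR called no member, 2 members had an unadjusted p under 0.05 in the CSA one (7.46% of genes) and 0 in those of RUX+CSA (14.1%) and RUX (3.27%), and 0.0223%, 0.00% and 0.00% of all genes were called for RUX+CSA, CSA and RUX. DESeq2 called 208, 15 and 2 genes in the same order.

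Of the surrounding genes, 3 of the 5 inhibitor of apoptosis genes were lower in CD8 cells when RUX+CSA pools were set against untreated ones, where 7.73% of all genes were called lower. Xiap, which blocks caspases directly, had 25.9 ± 0.258 CPM in RUX+CSA and 34.0 ± 3.02 CPM in untreated pools (-0.40, SE 0.10, adjusted p = 0.0215). Birc2, which encodes cIAP1, had 66.2 ± 3.51 CPM in RUX+CSA and 89.7 ± 5.81 CPM in untreated pools (-0.45, SE 0.10, adjusted p = 0.0173). Birc6 had 106 ± 2.16 CPM in RUX+CSA and 155 ± 18.4 CPM in untreated pools (-0.56, SE 0.14, adjusted p = 0.0253).

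Huwe1 was the one regulator called there, at 119 ± 23.1 CPM in RUX+CSA and 168 ± 15.7 CPM in untreated pools (-0.51, SE 0.12, adjusted p = 0.0184; SD, n = 3 each). All 4 calls ended with the marker covariate (adjusted p between 0.642 and 0.859). Those of Xiap, Birc2 and Huwe1 also ended without untreated pool 2 or RUX+CSA pool 10 or 11, and that of Birc6 without untreated pool 2 or 3 or any one RUX+CSA pool. In CD4 cells Fbxw7, a ubiquitin ligase adaptor that targets MCL1 for degradation, was the only gene of the 4 lists called in a drug comparison. The call came with against without cyclosporine, where 7.16% of all genes were called and 3.76% called higher. Fbxw7 was higher with cyclosporine (0.44, SE 0.09, adjusted p = 0.0114), with 41.5 ± 3.14 CPM in RUX+CSA, 53.0 ± 3.86 CPM in CSA, 32.2 ± 2.02 CPM in RUX and 37.2 ± 5.14 CPM in untreated pools, and this held on leaving out each of the 12 libraries. Its exons overlap 135 bases of Dear1, and the counting used no strand.

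The genes whose log2 CPM followed each member most closely were named by Pearson's r over the 24 libraries, the 3 highest a gene, as a description of libraries that share cell type, treatment and admixture. Bcl2l11 was followed by Sema4a, Pde3b and Gzmb, the gene of the cytotoxic protease granzyme B, with r of 0.95, 0.95 and 0.94. Within cell types these were 0.62, 0.52 and 0.52 in CD8 and 0.91, 0.91 and 0.89 in CD4 libraries, so the likeness was looser among CD8 pools. Bcl2l1 was followed by Galnt10 (0.97, and 0.96 within CD8 and 0.86 within CD4 libraries), Arap2 (0.95) and St6gal1 (0.95), and Bbc3 by Btbd19 (0.95), Dirc2 (0.95) and H1f0 (0.94). Mcl1 was followed by Abca1 (0.87), Gpr83 (0.87) and Mapkapk2 (0.85), and Bcl2 by Maml2 (0.80), Zbtb4 (0.77) and Filip1l (0.75). Pmaip1 was followed by Cdkn1a, a p53 target that encodes the cell cycle inhibitor p21 (0.83), Igtp (0.80) and Tgtp2 (0.80), and Bid by Smyd2 (0.90), Gcsh (0.90) and Apobec2 (0.89). Bad was followed by Selk (0.90), Ergic3 (0.89) and Scg2 (0.89), Bax by Nop16, Pycrl and Trappc2 (0.79 each) and Bak1 by Cep41 (0.74), Prpf8 (0.71) and Chtf8 (0.70). Within a cell type some of these were looser, such as Mcl1 with Gpr83 (0.28 in CD8, 0.92 in CD4 libraries), Bad with Ergic3 (0.23 and 0.88) and Bak1 with Prpf8 (0.89 and 0.22). Others were not, such as Bcl2 with Filip1l (0.82 and 0.84). By Spearman's rho the 3 nearest genes included 2 of the same names for Mcl1, 1 each for Bcl2, Bax, Bid and Pmaip1, and 0 for the other 5.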

How the data were processed

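The authors deposited raw counts, whole numbers of read pairs per gene, for all 24 libraries. Per the file headers, featureCounts 2.0.3 counted pairs over exons by gene, with no strand option. STAR and mm10 are named in the submitters' processing notes. From these counts, edgeR 4.0.16 (R 4.3.3) gave TMM factors, filtered with filterByExpr and ran two-sided robust quasi-likelihood tests. A first fit took the 12 CD8 libraries (12684 genes), another the 12 CD4 libraries (13175), and a last one all 24 for CD8 against CD4 (13476 genes). The 19 comparisons were adjusted by the Benjamini-Hochberg method over all genes, with a threshold of 0.05. Standard errors come from the F statistic. Alternatives were DESeq2 1.42.0, limma 3.58.1 (voom), other scalings, no filter, a covariate of neutrophil, erythroid and B cell markers, and libraries left out. The scripts were tested on simulated data. All 10 members were named, with up to 4 called genes a pathway list and the 3 genes nearest by Pearson's r of log2 CPM (prior count 2). The members, lists and rules were chosen with earlier results of these data known. Depth was 16912085 to 34550183 read pairs per library. Intervals are 95% intervals of the fits. No molecular identifiers were counted, so pairs need not be separate molecules. Sequences came from RefSeq windows that hold 9 members. A gene that the naming rule picks is not reported here.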

Additional observations from a re-analysis of the deposited data

How the results depend on the processing

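No paired analysis was made, because the labels name no shared mice and no pool number, 1 to 24, occurs in more than 1 group. Different numbers do not exclude shared mice, so whether pools are paired is unknown. Of the 190 pairs of a member and a comparison, 15 were called, and 322 of 343 other settings of these kept the call, with 0 changes of sign. Most of these settings left out 1 of 24 libraries in the mean CD8 against CD4 comparison, so the total says little of the other calls. Bcl2l11 in CD4 CSA against untreated kept its call in 2 of 6 leave-outs. Of the 175 uncalled pairs, 164 were called by no setting and 11 by at least 1. Counts of members called moved as follows. In CD8 RUX+CSA against untreated, 0 became 2 with DESeq2 (Bcl2, adjusted p = 0.0424, and Mcl1, 0.0360) and 2 without CSA pool 6 and RUX pool 7, and ranged between 0 and 1 with single libraries left out. Without those pools, 0 became 1 (Bcl2l1) in CD8 RUX+CSA against RUX and with against without cyclosporine. In CD4 RUX+CSA against RUX, 0 became 1 with DESeq2 (Bcl2l11, adjusted p = 0.000521) and voom (0.0441), and 2 with the marker covariate (Bcl2l11, 1.22 and adjusted p = 0.0107, and Bcl2l1, 0.72 and 0.0259). DESeq2 moved 0 to 1 (Mcl1) in CD4 RUX+CSA against CSA and with against without ruxolitinib (adjusted p = 0.0173). In CD4 with against without cyclosporine, 1 became 2 (Bcl2l1 added) with the covariate, and leave-outs gave 1 to 2. Leave-outs gave 0 to 1 in CD4 CSA against untreated and 3 to 5 in untreated CD8 against CD4 cells. The cause of these changes was not tested.

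Over all genes, the 1988 calls in CD8 RUX+CSA against untreated ranged between 0 with the covariate and 3893 without CD8 CSA pool 6 and CD8 RUX pool 7, which are in neither group. They ranged between 426 and 1807 with single libraries left out. The 195 calls in CD4 CSA against untreated ranged between 48 and 204 with single libraries left out, and the 943 with against without cyclosporine between 456 and 1209. The covariate varies mostly between groups (74.5% of its variance in CD8 and 60.7% in CD4 libraries), so it removes treatment differences too. Members had at least 151 read pairs in every library, above the floor of 3.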
